A study of Mus musculus with 5 samples.

Results

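Of the genes that build young nerve cell processes and guide migrating neurons, 10 were followed through the development of the mouse cerebellum: Basp1, Marcks, Marcksl1, Stmn1, Dpysl3, Cd24a, Unc5c, Dab1, Plxnb2 and Ptn. They were taken by name, as the probes whose single gene symbol is on this list, which gave 11 of the 897 probes of the table, with 2 probes for Plxnb2 and 1 for each other gene. The genes were chosen with earlier results of these data known. Counts set beside the shares of all probes below are therefore a description and not a test. Total RNA of cerebellum was hybridised to arrays on embryonic day 18 (E18) and after birth on postnatal day 7 (P7), 14 (P14), 21 (P21) and 56 (P56), with 1 column of values for each of the 5 ages. Each column is the authors' mean of 2 array experiments, so no difference has a replicate check and no p-value is given; the small number of arrays limits the precision. No treatment or mutation is named in the labels, and the sources used here do not give strain, sex or the number of animals.

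A growing axon ends in a growth cone, a motile tip in which proteins bound to the inner face of the membrane, regulators of microtubules and receptors for guidance cues together steer extension. In the cerebellum, granule cells are born in the outer layer and migrate inward past the Purkinje cells during the first weeks after birth, while Purkinje cells take up their positions before and around birth under the control of the Reelin signal. Once axons are laid down and migration ends, the granule cell population consists of mature, connected neurons.

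Values were read as percent in which each array experiment was scaled to the probe's highest age in that experiment and the 2 experiments were then averaged. A probe whose highest age differs between the experiments thus never reaches 100%, as in 6 of the 11 probes. Ages can be compared within 1 probe, whereas levels of different probes cannot. The reading comes from the values, of which none exceeds 100, and is not stated by the authors. Rises and falls are changes of 2-fold or more between the ages compared. If each of the 2 experiments was scaled to lie between 0 and 100, the means also limit what each experiment can have shown: a mean of 100% requires 100% in both, and a mean of 3.50% allows at most 7.0% in either. The smallest fall that each experiment must then have had is given below. It is a limit that follows from the deposited means and this reading alone. It does not measure error or the spread between experiments, arrays or animals, which is not known.

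From E18 to P56, 8 of the 11 probes fell, 0 rose and 3 stayed within 2-fold. Dpysl3 and Cd24a had the deepest falls, 28.6-fold and 18.6-fold, followed by Basp1, Marcks, Marcksl1 and Ptn at 6.24-fold to 3.29-fold, and Stmn1 and Unc5c at 2.18-fold and 2.04-fold. The first 2 folds were computed from low P56 values of 3.50% and 5.37%. With values under the 10th percentile of the table (20.4%) set to it, both were 4.90-fold lower, the most this floor allows. Marcksl1 was then 4.78-fold, Basp1 4.70-fold and Marcks 4.30-fold lower. Since the floor also raised the P56 values of Basp1 and Marcks, this setting cannot rank the depth of these falls. The Dab1 probe and both Plxnb2 probes did not reach 2-fold. Of all probes 52.5% fell and 22.6% rose, so a fall was the usual outcome in this table, and the median over the 11 probes was -1.72 (log2) beside -1.07 for all probes. With each column divided by its median, which moves the median of all probes from -1.07 to -0.06, 5 of the 11 fell (Dpysl3, Cd24a, Basp1, Marcks and Marcksl1), and the split of all probes went from 471 lower and 203 higher to 147 lower and 272 higher. With quantile normalization Ptn fell too, which made 6 of 11, beside 206 probes lower and 246 higher.

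**Figure D1:**
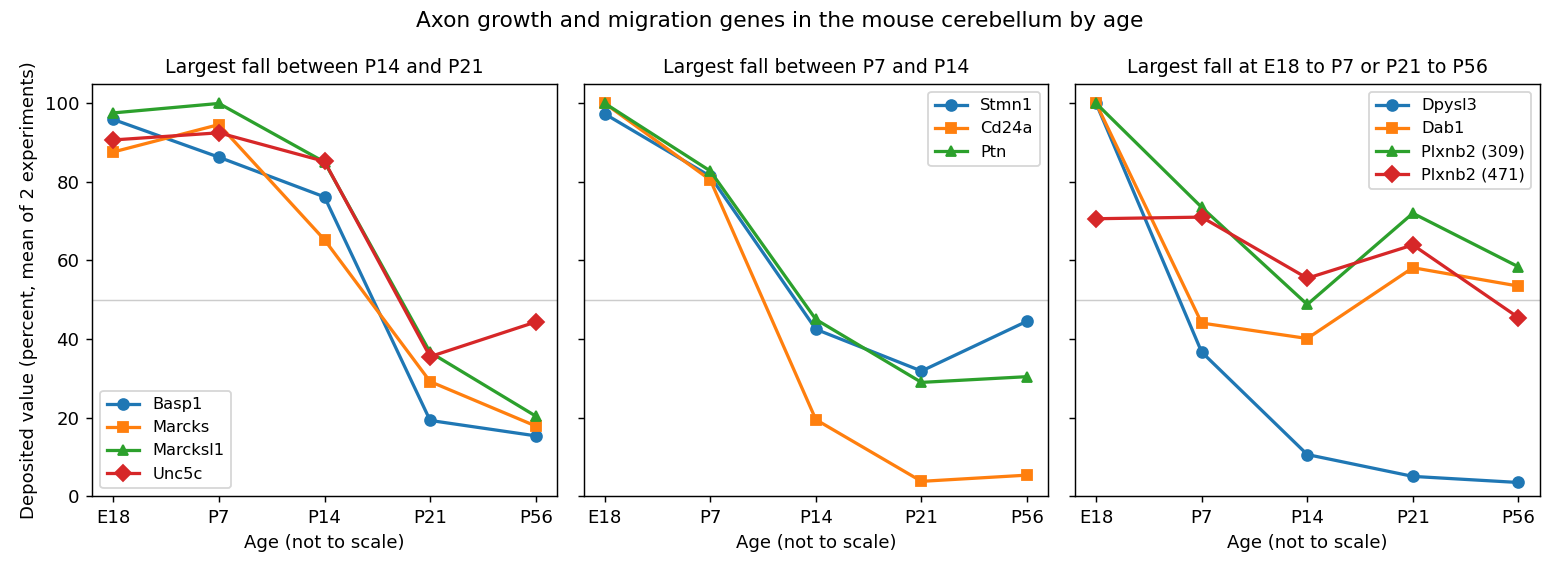
Deposited value of each probe, in percent averaged over 2 experiments, at the 5 ages, which are spaced evenly and not to scale; each line is 1 probe, grouped by the step with its largest drop in percentage points, and the 2 Plxnb2 probes carry their probe numbers. Basp1, Marcks, Marcksl1 and Unc5c are still between 65.3% and 85.2% at P14 and between 19.3% and 36.6% at P21, whereas Dpysl3 is at 36.7% by P7 and Cd24a at 19.5% by P14.

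Basp1, Marcks and Marcksl1 encode proteins anchored to the inner face of the plasma membrane, where they bind phosphoinositide lipids and regulate the actin skeleton of the growth cone. Basp1 stood at 95.9% at E18, 86.3% at P7, 76.2% at P14, 19.3% at P21 and 15.4% at P56. Marcks, a main substrate of protein kinase C, stood at 87.6%, 94.6%, 65.3%, 29.2% and 17.9% at the same ages. Marcksl1, its smaller relative, stood at 97.6%, 99.96%, 85.0%, 36.6% and 20.4%. Basp1 and Marcksl1 kept high values through P14, whereas Marcks dropped by 29.3 points from P7 to P14 and by 36.1 from P14 to P21. All 3 were lowest at P56. They fell 6.24-fold, 4.90-fold and 4.78-fold from E18 to P56, and each of the experiments must have shown a fall of at least 2.98-fold, 2.10-fold and 2.33-fold. Relative to the median probe the log2 differences were -1.57, -1.22 and -1.19. By root mean square difference of log2 values over the 5 ages, Marcks and Marcksl1 were the closest of all 55 pairs of the 11 probes (0.25), beside a median of 0.79 over the pairs. This measure takes in the level of a probe as well as its course. By the largest gap in points Basp1 and Marcks were closer, at 10.9 against 19.8 for Marcks and Marcksl1.

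Unc5c, which encodes a netrin receptor that mediates repulsion of axons and migrating cells, shared the late timing of Basp1 and Marcksl1. It stood at 90.7% at E18, 92.5% at P7, 85.2% at P14, 35.5% at P21 and 44.3% at P56. The drop lay between P14 and P21 and the value did not go lower afterwards. Its 2.04-fold fall from E18 to P56 was just past the threshold, lay close to that of the median probe (0.04 on the log2 scale relative to it) and was not called with columns divided by their medians (-0.02) or with quantile normalization (-0.12).

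From P14 to P21 these 4 genes fell 3.95-fold (Basp1), 2.40-fold (Unc5c), 2.32-fold (Marcksl1) and 2.24-fold (Marcks). Together with Cd24a and Dpysl3 they made 6 of the 11 probes that fell in this step, beside 13.2% of all probes. With the floor at the 10th percentile 4 fell, without Cd24a and Dpysl3, beside 7.02% of all probes. For Basp1 the change was 56.9 points, over the 50 points beyond which neither experiment can have gone the other way; 15 of all 897 probes fell by so much in this step. For Unc5c, Marcksl1 and Marcks it was 49.7, 48.4 and 36.1 points. With columns divided by their medians Basp1 (-1.59) and Cd24a (-1.97) were the 2 that fell, beside 51 of all probes lower and 61 higher in place of 118 and 29, while Unc5c, Marcksl1 and Marcks stood at -0.87, -0.82 and -0.77 (log2).

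RefSeq promoter windows of build GRCm38.p6 were found for 6 of the 10 genes, in 8 windows, since Dab1 and Plxnb2 have 2 each. The 250 bases before the start of Basp1 (chr15:25413765-25414014, minus strand), Marcksl1 (chr4:129513331-129513580, plus strand) and Unc5c (chr3:141465314-141465563, plus strand) are shown because these are the late-falling genes with a window; capitals mark the GC box CCGCCC on either strand.
Basp1: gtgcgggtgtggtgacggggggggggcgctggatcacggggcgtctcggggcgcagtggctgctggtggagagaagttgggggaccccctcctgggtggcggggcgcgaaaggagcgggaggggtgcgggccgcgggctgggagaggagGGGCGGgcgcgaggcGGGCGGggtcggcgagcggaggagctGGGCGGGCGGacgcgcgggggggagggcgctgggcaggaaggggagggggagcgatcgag
Marcksl1: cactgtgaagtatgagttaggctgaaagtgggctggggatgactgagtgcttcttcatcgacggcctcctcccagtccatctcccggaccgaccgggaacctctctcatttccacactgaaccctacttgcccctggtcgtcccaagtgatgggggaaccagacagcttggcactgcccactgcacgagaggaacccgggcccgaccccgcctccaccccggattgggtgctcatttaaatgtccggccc
Unc5c: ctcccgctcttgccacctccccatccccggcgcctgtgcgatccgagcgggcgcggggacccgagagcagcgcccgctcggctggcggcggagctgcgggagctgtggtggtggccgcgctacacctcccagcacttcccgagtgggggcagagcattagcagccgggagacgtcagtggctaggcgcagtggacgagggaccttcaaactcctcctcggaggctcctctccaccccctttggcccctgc
Basp1 held 4 such matches, the last 2 of them sharing bases, and Marcksl1 and Unc5c held 0. Over the 8 windows 4 held CCGCCC, beside 32.7% of the 32851 windows of the table. The E-boxes CAGCTG and CAGATG, the Sox-type motif AACAAT and the TATA box TATAAA, searched on both strands, were in 0 of the 8 windows and in 13%, 14.4%, 9.42% and 12.4% of all windows. GC content was 78.8% in the Basp1 window, 60.4% in that of Marcksl1 and 71.2% in that of Unc5c, beside a median of 52.4% over the table. These matches describe the letters in the windows and are not shown to be used.

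Stmn1 and Dpysl3 encode regulators of the microtubule and actin skeleton. Stmn1, the stathmin gene, whose product binds free tubulin and promotes microtubule shrinkage, stood at 97.3% at E18, 81.4% at P7, 42.5% at P14, 31.9% at P21 and 44.6% at P56. Its lowest value was thus at P21, and it fell 2.18-fold from E18 to P56, close to the median probe (-0.06 on the log2 scale relative to it). The means require a fall of no more than 1.06-fold in each experiment. The call was lost with columns divided by their medians (-0.12) and with quantile normalization (-0.37).

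Dpysl3, a collapsin response mediator gene expressed in newborn neurons, declined at every age measured, from 100% at E18 to 36.7% at P7, 10.6% at P14, 5.05% at P21 and 3.50% at P56. The 28.6-fold fall from E18 to P56 was exceeded by 1.78% of all probes, and each experiment must have shown at least a 14.3-fold fall. From E18 to P7 it fell 2.73-fold, a step in which 2.79% of all probes fell, and from P7 to P14 3.46-fold. The further fall from P14 to P21 was 2.10-fold. Both later falls reach low values: with the floor at the 10th percentile the log2 changes were -0.85 and 0.00, neither of them called. For the last, quantile normalization turned the change to 0.63 (log2).

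Cd24a encodes a small glycoprotein attached to the outer cell surface that is abundant on immature neurons. It stood at 100% at E18 and 80.5% at P7, and then at 19.5% at P14, 3.79% at P21 and 5.37% at P56. The falls were 4.13-fold from P7 to P14 and 5.14-fold from P14 to P21, and no other of the 10 genes dropped by so many points (61.0) in the first of these steps. From P7 to P14, 16.7% of all probes fell by over 50 points. From E18 to P56 each experiment must have shown a fall of Cd24a of at least 9.31-fold. Dpysl3 and Cd24a therefore ended at similarly low shares of their own highest age along different courses: at P7 they stood 43.8 points apart. The second fall of Cd24a was 0.00 (log2) with the floor at the 10th percentile, since its P14 and P21 values both lie under that floor.

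**Figure D2:**
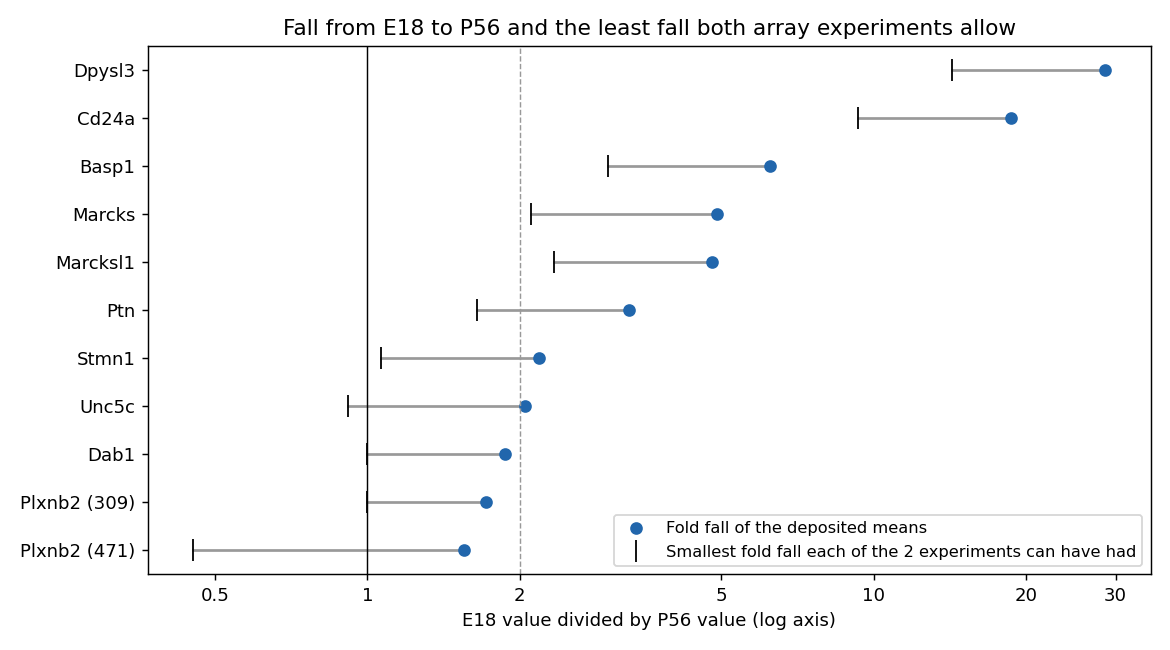
Ratio of the E18 to the P56 value of each probe on a log axis, with 1 row per probe; points are the deposited means, ticks the smallest fold fall that each of the 2 experiments can have had if its values lie between 0 and 100, and the dashed line is 2-fold. For 5 genes, Dpysl3, Cd24a, Basp1, Marcks and Marcksl1, the tick itself lies above 2-fold, with 2.10-fold as the lowest. The share of all probes with such a tick was not computed. From E18 to P56, 7 of the 11 probes and 43.0% of all probes fell by over 50 points.

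Ptn encodes pleiotrophin, a secreted heparin-binding factor that promotes the outgrowth of neurites and is made by glia and neurons. It stood at 100% at E18, 82.8% at P7, 45.0% at P14, 29.0% at P21 and 30.4% at P56. The value was lower at each age up to P21 and then level, a 3.29-fold fall from E18 to P56 with at least 1.64-fold in each experiment. With columns divided by their medians the log2 difference was -0.71 and was not called. Ptn and Stmn1 were the second closest pair of probes (0.26 on the log2 scale), and differed most at P56, by 14.1 points.

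Dab1 and Plxnb2 did not follow the others after P14. Dab1, the adaptor protein gene that relays the Reelin signal inside migrating neurons, stood at 100% at E18, 44.1% at P7, 40.1% at P14, 58.2% at P21 and 53.5% at P56. It fell 2.27-fold from E18 to P7, a drop of 55.9 points that under the same reading requires a fall of at least 1.13-fold in each experiment, and was 1.45-fold higher at P21 than at P14. From E18 to P7, 2.0% of all probes fell by over 50 points. From E18 to P56 the log2 difference of Dab1 was -0.90, and 0.11 with columns divided by their medians.

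Plxnb2 encodes plexin-B2, a receptor for class 4 semaphorins that is expressed by proliferating and migrating granule cell precursors. Probe 309 stood at 100% at E18, 73.5% at P7, 48.8% at P14, 72.0% at P21 and 58.4% at P56. Probe 471 stood at 70.6%, 71.0%, 55.5%, 64.0% and 45.5%. Both had a dip at P14 and a higher value at P21 (1.48-fold and 1.15-fold), but they disagreed in their lowest age, P14 in the first and P56 in the second, and were 29.4 points apart at E18. Neither fell 2-fold from E18 to P56 (-0.78 and -0.64 on the log2 scale), and both differences took the other sign with columns divided by their medians (0.23 and 0.37), while quantile normalization left the first at -0.39 and turned the second to 0.34. The root mean square difference of 0.30 (log2) between these 2 probes of 1 gene was larger than that between Marcks and Marcksl1. It includes a difference in level, since probe 471 reached at most 71.0% and probe 309 reached 100%, and so does not measure their courses alone.

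Across the steps, 2 of the 11 probes fell from E18 to P7 (Dpysl3 and Dab1), beside 2.79% of all probes. From P7 to P14, 2 fell (Cd24a and Dpysl3), beside 24.7% of all probes, with a median of -0.54 for the 11 close to the -0.58 of all probes. From P14 to P21, 6 fell, with medians of -1.07 and -0.35. From P21 to P56 0 fell, beside 2.23% of all probes; Marcksl1 and Marcks had the largest further decreases, 1.79-fold and 1.63-fold. No probe of the 11 rose in any step, where 5.8%, 14.4%, 3.23% and 2.68% of all probes did. Neighbouring steps share a column, and the steps are not independent of each other.

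**Figure D3:**
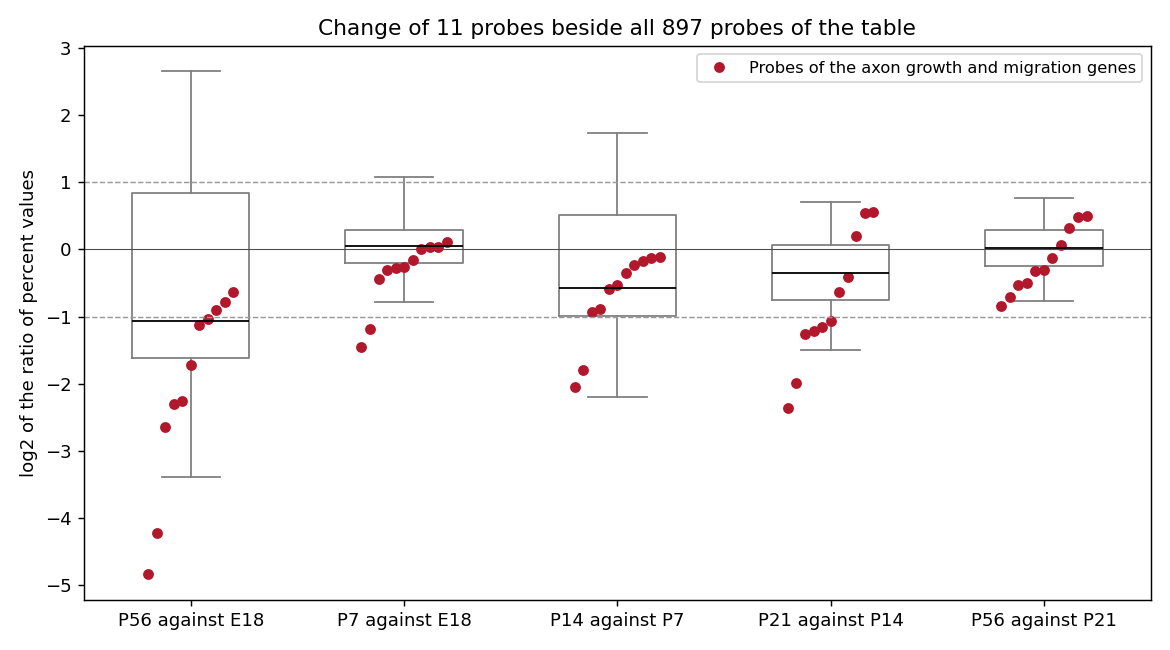
log2 of the ratio of percent values for 5 comparisons of ages; red points are the 11 probes, boxes the quartiles and median of all 897 probes with whiskers from the 5th to the 95th percentile, and dashed lines mark 2-fold. The 11 probes lie around the box for P14 against P7 (medians -0.54 and -0.58) and mostly below it for P21 against P14 (medians -1.07 and -0.35), where Dab1 and both Plxnb2 probes lie above 0.

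The highest mean value was at E18 for 7 of the 11 probes and at P7 for the other 4, Marcks, Marcksl1, Unc5c and Plxnb2 probe 471. These 4 probes, Basp1 and Stmn1 did not reach 100%. Under the reading above, their highest age differed between the 2 experiments and is not settled by the mean. Of all 897 probes 420 stood at 100 at 1 age. Over all probes E18 was highest in 34.9% and P7 in 33.6%. The later 3 ages were the highest in 0 of the 11, beside 8.2% (P14), 8.6% (P21) and 14.7% (P56) of all probes. Between E18 and P7 the 4 differed by 7.0 points or less. With columns divided by their medians E18 was highest for 4, P14 for 4 (Unc5c, Basp1, Marcks and Marcksl1) and P21 for 3 (Dab1 and both Plxnb2 probes). The median of all probes went from 84.5% at E18 to 42.0% at P56, so this scaling raises the later ages of every probe relative to E18. With quantile normalization E18 was highest for 6, P7 for 2, P14 for 2 and P21 for 1. The shares of all probes under these 2 scalings were not computed.

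Of 107 other genes listed for growth cones, guidance, adhesion, migration and midkine signalling, 13 had a probe with a single symbol. These lists, too, were chosen with earlier results of these data known, so their counts beside all named genes are a description. From E18 to P56, 11 of the 13 fell and 1 rose, with a median of -1.61 (log2), beside 408 of 773 named genes fallen, 170 risen and a median of -1.07. All 3 guidance genes fell: Efna2, an ephrin ligand gene, 4.37-fold, Nrp1, a coreceptor gene for class 3 semaphorins, 4.19-fold, and Plxna3, the gene of a plexin that signals with it, 2.41-fold. All 4 adhesion genes fell, led by Vcan, the versican gene, which stood at 65.8% at E18, 100% at P7 and 2.63% at P56, and by Tnc, the tenascin C gene, 10.1-fold. Alcam and Cdh2, the N-cadherin gene, fell 2.95-fold and 2.45-fold. Dividing each column by its median left 5 of the 13 fallen (Vcan, Tnc, Cxcr4, Efna2 and Nrp1) and 1 risen, beside 16.4% of all probes fallen and 30.3% risen.

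In the migration list Cxcr4, the chemokine receptor gene that keeps granule cell precursors at the surface of the cerebellum, fell 6.63-fold, and Cdk5r1, the activator gene of the kinase Cdk5, fell 2.57-fold. Fyn, a kinase gene that acts on Dab1, stood at 82.2% at E18, 93.9% at P14, 49.4% at P21 and 45.2% at P56. Its drop lay between P14 and P21, as in Basp1 and Marcksl1, and did not reach 2-fold. Of the 3 cytoskeletal genes Fscn1, which encodes the actin-bundling protein fascin, fell 3.68-fold and Nefm, a neurofilament gene, 3.06-fold, while Nefh, the gene of the heavy neurofilament chain of mature axons, rose 6.20-fold from 16.1% to 100%.

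**Figure D4:**
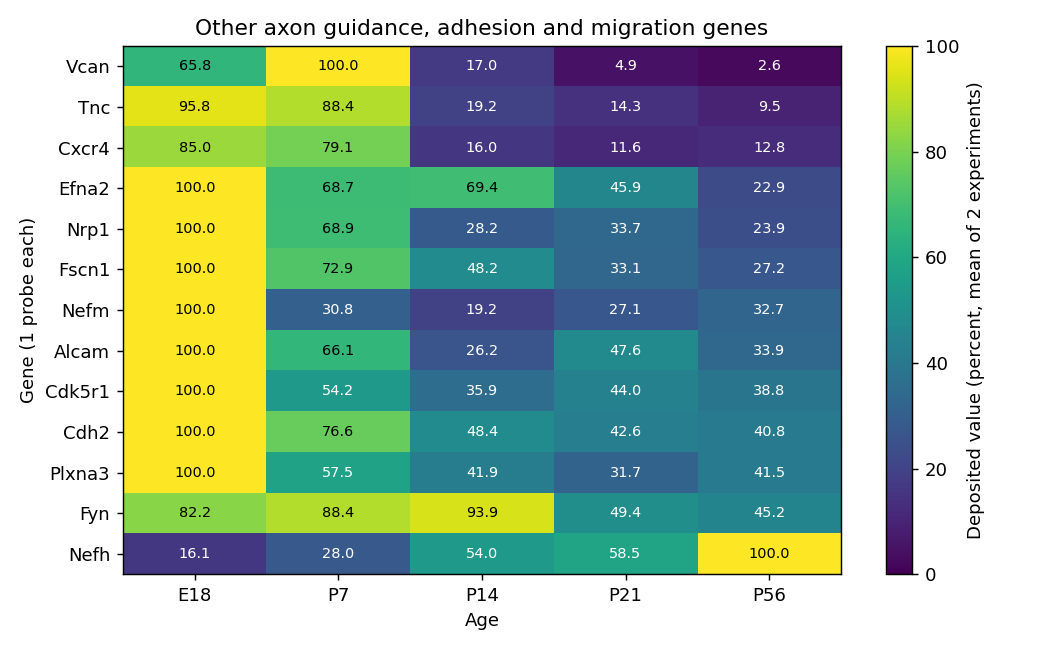
Deposited values, in percent averaged over 2 experiments, for the 13 measured genes of the axon and migration lists outside the 10, with 1 row per gene, 1 column per age and the value printed in each cell, ordered by the change from E18 to P56. Vcan reaches 2.6% and Nefh 100% at P56.

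Other genes with the most similar profiles were found among 762 probes by the root mean square difference of log2 values over the 5 ages; with so few ages such a match is only a description. Socs2 lay closest to Basp1 (0.24), Eln to Marcks (0.20), Ddah2 to Marcksl1 (0.17), Mcrs1 to Unc5c (0.09), Dcn to Stmn1 (0.07), Ebf3 to Dpysl3 (0.36) and Sinhcaf to Cd24a (0.33). Runx1t1 lay closest to Dab1 (0.14), Ranbp1 to Ptn (0.07), Igfbp5 to Plxnb2 probe 309 (0.19) and Fndc3a to its probe 471 (0.11). The median profile of the 11 probes was nearest to Nras (0.07), Nsa2, Meis1, Tuba3b and Mapre1 (0.10). Dpysl3 and Cd24a had the most distant nearest match.

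Markers of the cell types of the tissue moved over the same ages. Of the 6 listed markers of dividing cells 5 were measured and all 5 fell from E18 to P56; their median went from 95.3% at P7 to 8.47% at P14. Cd24a, Stmn1 and Ptn had their largest drop in that same step (-61.0, -38.9 and -37.8 points), and Basp1, Marcks, Marcksl1 and Unc5c in the next. All 4 mature granule cell markers rose, with medians of 2.79% at E18, 6.18% at P7 and 80.8% at P14, and so did the 3 measured of 4 Purkinje cell markers, with 22.5%, 39.2% and 95.6%. The 3 measured of 5 myelin markers rose from a median at the 1% floor at E18 to 87.9% at P21, and the 3 astrocyte markers also rose, Aqp4 and Gfap to 98.9% and 100% at P7 and S100b to 19.6% at P7 and 100% at P56. Of 4 meningeal markers 3 fell and of 3 vessel markers all fell, with medians of 100% and 96.1% at E18 and of 17.1% and 23.7% at P56. Of 3 markers of forebrain or brainstem neurons 1 rose and 1 fell, with a median of 47.1% at E18 and 83.4% at P56. Of 5 general cerebellar markers En1 fell from 100% at E18 to 22.4% at P56 and Neurod1 stood at 56.7% and 40.6%, the only 2 measured; a percent scale does not show how strongly any marker was expressed. In tissue RNA fewer cells of a type and less RNA per cell cannot be told apart, and the part of these changes in the values of the 10 genes was not tested.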

How the data were processed

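Per the labels, each deposited column holds the mean signal of 2 array experiments on total RNA of mouse cerebellum. The deposited values were read as percent, since all lie between 0.01 and 100 and 420 of 897 probes stand at exactly 100 at 1 age, as when experiments are scaled before averaging; background correction, normalization, the choice of probes and the array's genome build were not given in the sources used here. Gene names are those of the platform annotation and may be outdated (787 probes with 1 symbol, 16 with several and 94 with none), and the 10 symbols used match RefSeq (GRCm38.p6).

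Values under 1% (none among the 11 probes) were set to 1%, log2 ratios were taken within a probe, and 2-fold or more was called (Python 3.11.15, pandas 2.3.3). The calculation was run on simulated data in which most probes were unchanged and the planted changes were larger than 2-fold. That checks the arithmetic and not the calls made here. All 10 genes, all measured genes of the other lists and the nearest profiles were named. Alternatives were other floors, a pseudocount, column scalings, thresholds, filters, 1 probe per gene and other reference ages. The genes and lists were chosen with earlier results of these data known. The limit on each experiment's fall was added after the values were seen. Protein sequences were not used here.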

Additional observations from a re-analysis of the deposited data

How the results depend on the processing

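The falls from E18 to P56 of Dpysl3, Cd24a, Basp1, Marcks and Marcksl1 were called under every floor, pseudocount, scaling and threshold tried. The number of the 11 probes changed went from 8 to 5 with columns divided by their medians (16.4% of all probes fell and 30.3% rose). It was between 6 and 11 under the other alternatives. The 6 at 3-fold stood beside 26.1% of all probes fallen and 15.1% risen. The 11 at 1.5-fold stood beside 64.9% fallen and 27.1% risen, so most probes changed at that threshold. For P7 against E18 it went from 2 to 0 at 3-fold (0.111% of all probes fell). For P14 against P7 it went from 2 to 1 with the floor at the 10th percentile, where the fall of Dpysl3 was lost (24.4% of all probes fell), and to 5 at 1.5-fold, where 49.8% of all probes fell. For P21 against P14 it went from 6 to 2 at 3-fold, with quantile normalization and with columns divided by their medians (4.24%, 4.24% and 5.69% of all probes fell). For P56 against P21 it went from 0 to 2 at 1.5-fold (8.7% of all probes fell). Of the 13 other axon and migration genes, 6 in place of 12 changed with columns divided by their medians. Of all probes 16.4% then fell and 30.3% rose, in place of 52.5% and 22.6%. E18 was under this scaling the highest age of 4 of the 11 probes in place of 7, and of 6 with quantile normalization. The shares of all probes with E18 highest were not computed under these scalings. Dpysl3 from P14 to P21 turned from -1.07 to 0.63 (log2) with quantile normalization; the lowest value of the P14 column is 4.43%, and the cause was not tested. No paired analysis was possible because each age has 1 column. Values of a few percent are the least certain, since their signal over background is not known.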
